A study of Mus musculus with 9 samples.

Results

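The genes described are 10 genes of iron storage, uptake and export: Fth1, Ftl1, Tfrc, Slc40a1, Slc11a1, Slc11a2, Aco1, Ireb2, Ncoa4 and Pcbp1. They were taken by symbol from a table of 53715 gene IDs, in which Fth1 stood on 2 rows. The second Fth1 row, a processed pseudogene, was listed at 0 in every library and was not used, so each gene had 1 row. RNA was sequenced from primary myoblasts, muscle precursor cells, of the mouse strain C57BL/10ScSn-Dmdmdx/J at passage 1. All libraries therefore share the Dmd mutation of this model of muscular dystrophy, and no library of a strain without it was analysed here. Glycine, an amino acid, was supplied at 0.2 mM to the cells of 3 libraries and at 0.8 mM to those of 6, and the question is how mRNA levels differ between these supplies. The labels name no separate cultures or animals, so p-values measure the spread between these libraries, which may be technical. By their labels all libraries at 0.2 mM belong to one numbered set and all at 0.8 mM to another, so the set and the glycine level cannot be told apart.

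Iron reaches most cells bound to transferrin, which is taken up by the transferrin receptor and releases its iron inside endosomes. DMT1 carries the iron into the cytosol, chaperones of the PCBP family hand it on, ferritin stores it, NCOA4 delivers ferritin to lysosomes for breakdown, and ferroportin exports it. When iron is scarce, the iron regulatory proteins IRP1 and IRP2 bind hairpins called iron-responsive elements in mRNA, where a hairpin before the coding sequence blocks translation and hairpins after it protect the mRNA from decay. Muscle needs iron for myoglobin and for the iron-sulfur and heme proteins of mitochondria.

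Levels are TPM, a share of the library's transcripts in which reads are divided by gene length, so levels of different genes can be compared. TPM keeps no read numbers, so the depth behind each value is unknown. Means are given ± SD over the 3 or 6 libraries. Fold changes are differences of log2(TPM + 1), 0.8 mM minus 0.2 mM, given ± SE from limma; for genes of low TPM they come out smaller than the change in TPM itself. The threshold was an adjusted p under 0.05 (Benjamini-Hochberg) over the 10049 genes tested, which had at least 1 TPM in at least 3 libraries, and "rose" and "fell" are used only of genes that passed.

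The muscle identity of the cells was visible in the libraries, with all 10 muscle markers present. They summed to 1712 ± 180 TPM at 0.2 mM and 6799 ± 480 TPM at 0.8 mM. The exact permutation p was 0.0238, the smallest this test as run can give for 3 against 6 libraries. Adjusted over the 5 marker lists it was 0.0397. Transcripts used as markers of other cell types were also present. Markers of fibroblasts and fibro-adipogenic progenitors summed to 2391 ± 198 and 2940 ± 228 TPM, with Tcf21 at 0 in every library, and 6 of 8 tested markers rose, where 16.7% of all genes tested did. Endothelial markers summed to 6.53 ± 1.09 and 13.9 ± 1.33 TPM, and 4 of 4 tested rose. Both sums gave the same exact permutation p as the muscle sum, 0.0238, and 0.0397 adjusted. Erythroid markers summed to 1.06 ± 0.595 and 1.37 ± 0.478 TPM, with Hbb-bt among those at 0 throughout. Markers of macrophages and other leukocytes, cells that themselves store and recycle iron, are given beside Slc11a1 below. Bulk RNA does not show which cells a marker transcript came from, and the part of any such cells in the results was not tested.

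Fth1 and Ftl1, which encode the heavy and light chains of ferritin, were lower at 0.8 mM glycine, as were Ncoa4 and the importer gene Slc11a2, while Tfrc and Pcbp1 were higher. Of the 9 genes tested, 2 rose, 4 fell and 3 did not pass. Over all genes tested, 16.7% rose, 9.81% fell and 26.6% passed in either direction. The median log2 fold change of the 9 was -0.28, beside 0.0616 for all genes tested. The groups' values did not overlap for 5 of the 9, with 2 higher and 3 lower at 0.8 mM. Over all genes tested the groups did not overlap for 28.2%, made up of 17.6% that were higher and 10.6% that were lower. Left without 0.2 mM replicate 1, 2 or 3 or 0.8 mM replicate 5, 2 of the 9 fell instead of 4, and without 0.2 mM replicate 1 only Tfrc rose. The remaining gene, Slc40a1, stayed under the filter. These are bulk samples, so fewer cells of a type and less RNA per cell cannot be told apart.

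**Figure D1:**
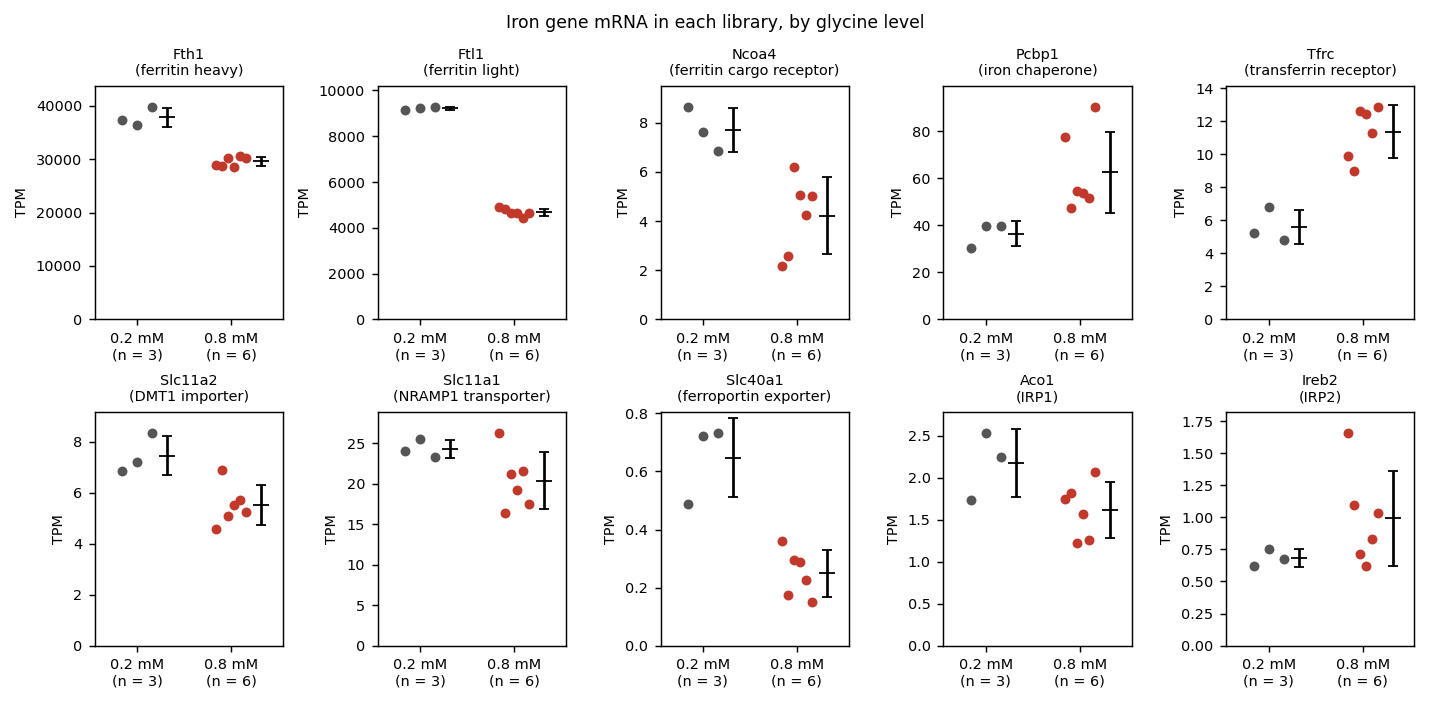
Each panel shows 1 of the 10 iron genes, with its TPM from 0 upward and a point for every library, grey for the 3 at 0.2 mM glycine and red for the 6 at 0.8 mM; black bars are means with SD. The groups do not overlap for Fth1, Ftl1, Ncoa4 and Slc40a1, which are lower at 0.8 mM, and for Tfrc and Pcbp1, which are higher.

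**Figure D2:**
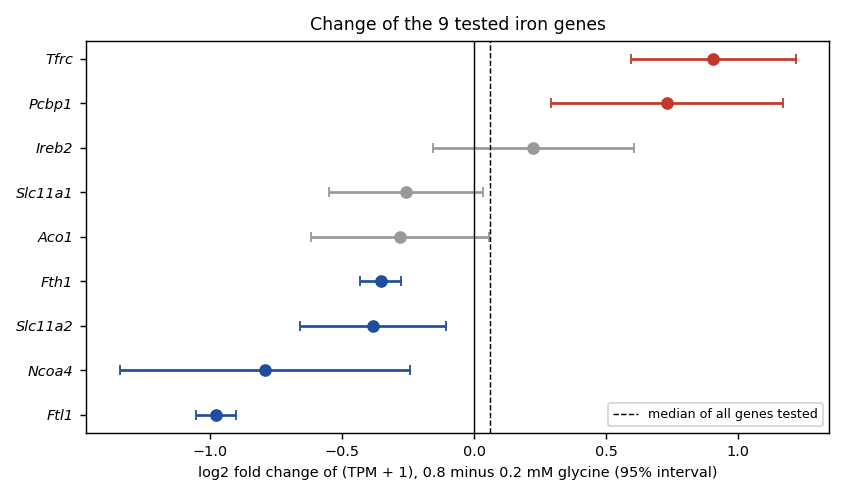
The log2 fold change of (TPM + 1), 0.8 minus 0.2 mM glycine, with its 95% interval from limma, for the 9 iron genes tested; blue genes fell, red genes rose, grey genes did not pass, and the dashed line is the median of all genes tested, 0.0616. Ftl1 is lowest at -0.98 and Tfrc highest at 0.91.

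The regulated hairpins could be read in the transcripts of 4 of the 10 genes, and their sequences are shown because they are the shared element through which the iron regulatory proteins act. The search, on the sense strand of GENCODE M21 transcripts (GRCm38), asked for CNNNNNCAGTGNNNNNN in which the last 5 bases pair with the 5 before the loop, allowing G-T pairs, with any base but G as the last of the loop. In each sequence the bulged C and the 6 bases of the loop are in capitals, and 5 bases on either side of the match are included. The first 3 lie in the 5′ UTR and the other 4 in the 3′ UTR of Tfrc.
Fth1, chr19:9982733-9982759, plus strand: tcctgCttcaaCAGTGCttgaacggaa
Ftl1, chr7:45459780-45459806, minus strand: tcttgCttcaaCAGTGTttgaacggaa
Slc40a1, chr1:45925466-45925492, minus strand: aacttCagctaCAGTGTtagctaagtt
Tfrc, chr16:32631220-32631246, plus strand: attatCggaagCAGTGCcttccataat
Tfrc, chr16:32631599-32631625, plus strand: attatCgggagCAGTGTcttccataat
Tfrc, chr16:32631664-32631690, plus strand: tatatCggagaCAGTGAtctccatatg
Tfrc, chr16:32631711-32631737, plus strand: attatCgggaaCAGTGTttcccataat

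Fth1 and Ftl1 had the same upper stem, ttcaa before and ttgaa after the loop. Such letters were found in a 5′ UTR of 23 of 21901 protein-coding genes (0.105%) and in a 3′ UTR of 100 (0.46%). A match is a description of letters, not of binding, and no match says only that these letters are not there. No match was found in Slc11a2. The search asked for 5 unbroken pairs, so it would miss a hairpin with a further bulge in that stem, in Slc11a2 or elsewhere. The mRNA of the 3 genes with 5′ UTR letters was lower at 0.8 mM in every library, though Slc40a1 was under the filter. Tfrc was higher in every library at 0.8 mM, and Slc11a2 fell. Whether the letters bear on these mRNA levels was not tested. Of the 14 other tested genes with the letters in a 5′ UTR, 2 rose (14.3%), 2 fell (14.3%) and 10 did not pass, with a median of 0.0356. Ftl1-ps1, a copy of Ftl1 described below, was among those that fell. Of 59 other tested genes with the letters in a 3′ UTR, 10 rose (16.9%), 1 fell (1.69%) and 48 did not pass, with a median of 0.216. Over all genes tested 16.7% rose and 9.81% fell, with a median of 0.0616. With 3′ UTR letters the share that rose was near that of all genes, while the share that fell was lower and the median higher. What these shares owe to the letters was not tested. Ftl1-ps1 was chosen with its values in view.

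**Figure D3:**
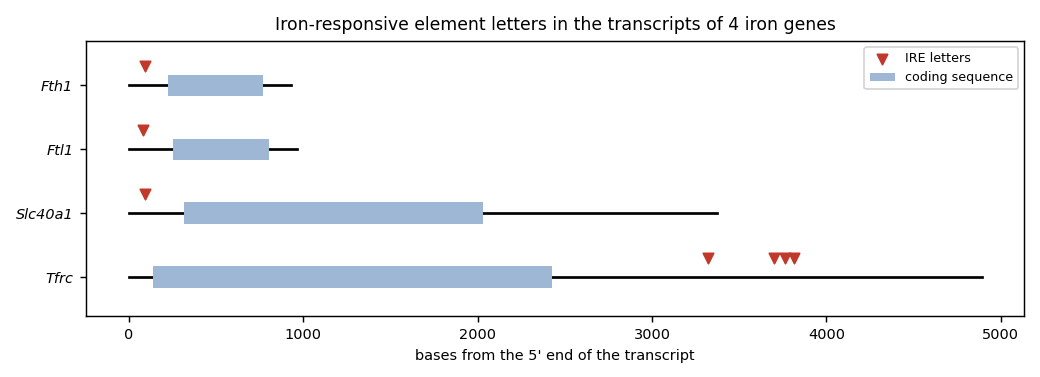
Transcripts of Fth1, Ftl1, Slc40a1 and Tfrc drawn to scale in bases from their 5′ end, with the coding sequence as a blue bar and each match to the iron-responsive element letters as a red triangle. The matches of Fth1, Ftl1 and Slc40a1 start at bases 93, 84 and 96, before the coding sequence, and the 4 of Tfrc start between bases 3321 and 3812, after it.

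Fth1 (chromosome 19, 9980598 to 9985098) encodes the heavy chain, which oxidises iron as it enters the ferritin shell. It held the third highest TPM in every library. Its level was 37381, 36344 and 39786 TPM in the 3 libraries at 0.2 mM, and between 28624 and 30569 TPM, with a median of 29628, in the 6 at 0.8 mM. Every library at 0.8 mM was below every library at 0.2 mM, and the means were 37837 ± 1766 and 29581 ± 879 TPM. Fth1 fell by 0.35 ± 0.035 on the log2 scale (limma adjusted p = 2.79e-05). With quantile normalization its difference is 0 by construction, since it keeps the same rank in each library.

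Ftl1 (chromosome 7, 45457944 to 45459884) encodes the light chain, which helps the shell to form its iron core. It stood at 9141, 9244 and 9280 TPM at 0.2 mM. At 0.8 mM it ranged from 4439 to 4892 TPM, with a median of 4642. The libraries of each group lay close together and the groups were far apart, at 9222 ± 72.1 and 4679 ± 162 TPM. Ftl1 fell by 0.98 ± 0.034 (limma adjusted p = 1.58e-08), so its mean at 0.2 mM was 1.97 times that at 0.8 mM, beside 1.28 times for Fth1.

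The ferritin mRNAs therefore made up less of the libraries at 0.8 mM, and in another proportion to each other. Fth1 and Ftl1 together held 4.65%, 4.56% and 4.91% of TPM at 0.2 mM and between 3.33% and 3.50%, with a median of 3.44%, at 0.8 mM. There were 4.09, 3.93 and 4.29 TPM of Fth1 for each TPM of Ftl1 at 0.2 mM, and from 5.93 to 6.89, with a median of 6.34, at 0.8 mM. A constant factor applied to a library leaves this ratio as it is, and its values did not overlap between the groups. Heavy-rich and light-rich ferritin are both known from tissues, and the ratio given here is of mRNA, not of protein.

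Ferritin genes have many near-identical copies in the mouse genome, among which reads may have been shared. A sequence search for transcripts at least 90% identical over at least 200 bases, on either strand, found 1 such gene for Fth1 and 9 for Ftl1. They are called copies here, but the 9 are annotated genes and not all separate genomic copies. Among them Gm10252 overlaps exons of Ftl1 itself on the other strand, and Gm47428 lies over another of them, Ftl1-ps1. The copy of Fth1 was at 0 in every library but one, where it reached 0.499 TPM. The copies of Ftl1 summed to 770 ± 25.7 TPM at 0.2 mM and 418 ± 25.4 TPM at 0.8 mM. Nearly all of that was Gm47428 (chromosome 13, 74404183 to 74406737), annotated antisense to Ftl1-ps1, with 341 bases 99.7% identical to Ftl1. Whether counting used strand is not given in the sources used here, so reads from these antisense partners and from Ftl1 itself cannot be told apart. For each 100 TPM of Ftl1 the copies held 8.35 ± 0.287 TPM at 0.2 mM and 8.92 ± 0.350 TPM at 0.8 mM, and these ranges overlapped. Summed with its copies, Ftl1 stood at 9992 ± 76.2 and 5097 ± 182 TPM. Gm10252, which is counted in these sums, stood at 2.75 and 2.22 TPM on average.

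**Figure D4:**
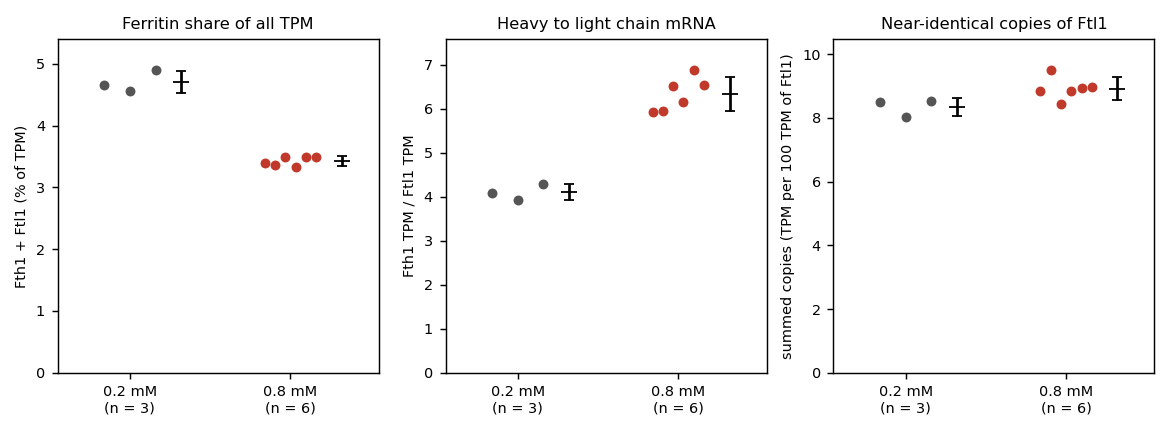
Points are libraries, grey for the 3 at 0.2 mM glycine and red for the 6 at 0.8 mM, and black bars are means with SD. The panels show Fth1 plus Ftl1 as a percentage of all TPM, TPM of Fth1 divided by that of Ftl1, and the summed TPM of the copies of Ftl1 for each 100 TPM of Ftl1. The ferritin share is lower and the heavy to light ratio higher in every library at 0.8 mM, while the copies' share of Ftl1 overlaps between groups.

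Ncoa4 (chromosome 14, 32159865 to 32179855) encodes the receptor that carries ferritin to the lysosome. Its level was 8.64, 7.63 and 6.86 TPM at 0.2 mM and between 2.18 and 6.21 TPM, with a median of 4.63, at 0.8 mM. All libraries at 0.8 mM were lower, but they were spread widely, with replicates 1 and 2 at 2.18 and 2.59 TPM and the other 4 at or above 4.24 TPM. Ncoa4 fell by 0.79 ± 0.25 (limma adjusted p = 0.0372). It missed the threshold without any 1 of 5 libraries: 0.2 mM replicates 1 (0.124), 2 (0.0965) and 3 (0.0675), and 0.8 mM replicates 2 (0.0594) and 5 (0.0547). It also missed it with no filter (0.0965) and with libraries 1 to 3 of each group alone (0.0532).

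Pcbp1 (chromosome 6, 86524492 to 86526321) encodes an RNA-binding protein that also delivers iron to ferritin. It stood at 30.3, 39.7 and 39.6 TPM at 0.2 mM and from 47.2 to 90.4 TPM, with a median of 54.2, at 0.8 mM. All libraries at 0.8 mM were higher, with replicates 1 and 6, at 77.7 and 90.4 TPM, above the other 4. Pcbp1 rose by 0.73 ± 0.20 (limma adjusted p = 0.0193). The call was lost when 0.2 mM replicate 1 was left out (0.0891) and with no filter (0.0589). The antisense gene 1600020E01Rik shares 75 exon bases with it and stood at 4.20 and 2.36 TPM on average.

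Tfrc (chromosome 16, 32608920 to 32632794) encodes the transferrin receptor, through which most dividing cells take up iron. Its level was 5.20, 6.79 and 4.81 TPM at 0.2 mM and between 8.97 and 12.9 TPM, with a median of 11.9, at 0.8 mM. No library at 0.8 mM was as low as the highest at 0.2 mM. The means were 5.60 ± 1.05 and 11.4 ± 1.61 TPM, and Tfrc rose by 0.91 ± 0.14 (limma adjusted p = 0.000696). For each TPM of Tfrc there were 6939 ± 1475 TPM of Fth1 at 0.2 mM and 2648 ± 366 TPM at 0.8 mM. Since Fth1 was lower and Tfrc higher in every library at 0.8 mM, this ratio could not overlap and adds no separate result.

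Slc11a2 (chromosome 15, 100387898 to 100425072) encodes DMT1, the carrier that takes iron out of the endosome. It stood at 6.86, 7.19 and 8.34 TPM at 0.2 mM and between 4.56 and 6.89 TPM, with a median of 5.39, at 0.8 mM. The groups overlapped only in that replicate 2 at 0.8 mM, at 6.89 TPM, was above replicate 1 at 0.2 mM, at 6.86 TPM. Slc11a2 fell by 0.38 ± 0.13 (limma adjusted p = 0.0452), close to the threshold. The call held without 0.8 mM replicate 2 (0.019) and was lost without any 1 of the other 8 libraries, up to an adjusted p of 0.168 without 0.2 mM replicate 3, with no filter (0.0781) and with libraries 1 to 3 of each group alone (0.155).

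Slc11a1 (chromosome 1, 74375195 to 74386062) encodes NRAMP1, a metal transporter of the phagosome membrane best known from macrophages. Its level was 24.0, 25.5 and 23.3 TPM at 0.2 mM and between 16.4 and 26.2 TPM, with a median of 20.2, at 0.8 mM. The highest library of all was replicate 1 at 0.8 mM, and the other 5 at 0.8 mM were below all at 0.2 mM. Slc11a1 did not pass, with a log2 fold change of -0.26 ± 0.13 (limma adjusted p = 0.182) and a 95% interval from -0.55 to 0.03. Without replicate 1 at 0.8 mM it passed (0.0456).

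Slc11a1 stood above Tfrc and Slc11a2 in these cultures. All 18 markers of macrophages and other leukocytes were above 0 in at least 1 library, led by Fcer1g at 949 and 888 TPM and Lyz2 at 588 and 1013 TPM on average. Their sum was 1955 to 2136 TPM at 0.2 mM and 2110 to 2584 TPM at 0.8 mM (exact permutation p = 0.0476, and 0.0595 adjusted over the 5 marker lists). Of 17 tested, 4 rose (23.5%), 3 fell (17.6%) and 10 did not pass. Over all genes tested 16.7% rose and 9.81% fell. Itgam, Cd14, Tyrobp and Lyz2 rose, and Cd68, Fcgr3 and Mpeg1 fell, with Cd68, a lysosomal protein, at 182 and 57.6 TPM on average. The part of these cells in the levels of Slc11a1, Slc40a1 and the ferritin genes was not tested.

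Slc40a1 (chromosome 1, 45908068 to 45926523) encodes ferroportin, the exporter of iron from cells. It was the lowest of the 10 genes in each group by its mean, at 0.489, 0.722 and 0.731 TPM at 0.2 mM and from 0.149 to 0.360 TPM, with a median of 0.257, at 0.8 mM. No library reached 1 TPM, so it was not among the genes tested. All libraries at 0.8 mM were below those at 0.2 mM. With no filter, over 22474 genes, it was lower by -0.40 ± 0.090 (limma adjusted p = 0.0201).

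The iron sensors Aco1 and Ireb2 encode IRP1 and IRP2. Aco1 (chromosome 4, 40143081 to 40198338), which serves as a cytosolic aconitase when it holds an iron-sulfur cluster, was at 1.74, 2.53 and 2.25 TPM at 0.2 mM and from 1.22 to 2.07 TPM, with a median of 1.66, at 0.8 mM. The groups overlapped and Aco1 did not pass, with a difference of -0.28 ± 0.15 (limma adjusted p = 0.214) and a 95% interval from -0.62 to 0.06. Ireb2 (chromosome 9, 54863789 to 54912530), whose protein is degraded when iron is plentiful, was at 0.623, 0.756 and 0.672 TPM at 0.2 mM and from 0.618 to 1.65 TPM, with a median of 0.933, at 0.8 mM. It passed the filter through 3 libraries at 0.8 mM alone, and its difference of 0.22 ± 0.17 did not pass (limma adjusted p = 0.384, 95% interval from -0.16 to 0.60).

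In order of level, the genes stood at 0.2 mM as Fth1, Ftl1, Pcbp1, Slc11a1, Ncoa4, Slc11a2, Tfrc, Aco1, Ireb2 and Slc40a1. Neighbours overlapped in range only for Ncoa4 with Slc11a2 and for Ireb2 with Slc40a1. At 0.8 mM the first 4 were the same and next came Tfrc, followed by Slc11a2, Ncoa4, Aco1, Ireb2 and Slc40a1. There the ranges overlapped for Slc11a2 with Ncoa4 and for Aco1 with Ireb2. Among the 6 libraries at 0.8 mM the coefficient of variation was lowest for Fth1 (2.97%) and Ftl1 (3.46%) and highest for Ireb2 (37.6%) and Ncoa4 (36.9%). Among the 3 at 0.2 mM it was lowest for Ftl1 (0.782%), Slc11a1 (4.5%) and Fth1 (4.67%) and highest for Slc40a1 (21.2%).

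Patterns were compared by Pearson correlation of log2(TPM + 1) over the 9 libraries. The search covered 4186 tested protein-coding genes with a mean of at least 5 TPM, leaving out clone and pseudogene names. The genes nearest to Fth1 were H2-D1, H3f3b, Ctsl and Cebpd, each at r = 0.985. Those nearest to Tfrc were Fndc1 (0.972), Crabp1 (0.970), Cdkn1a (0.965) and Dag1 (0.965), and those nearest to Slc11a1 were Gmfb (0.890), Ndufa7 (0.879), Pink1 (0.869) and Mettl6 (0.862). These values describe the libraries, which share the step between the groups.

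Among other genes of iron handling, 71 of those listed were in the table and 55 were tested, of which 12 rose, 8 fell and 35 did not pass. That is 21.8% that rose and 14.5% that fell, beside 16.7% and 9.81% of all genes tested, and the median of 0.064 was near that of all genes tested. With median-ratio scaling or quantile normalization 8 of them rose and 10 fell, and 7 or 6 rose without 0.2 mM replicate 1 or 2. Of the STEAP family, known for metalloreductases, Steap1 fell from 31.3 ± 0.906 to 14.0 ± 1.97 TPM, or by log2 -1.12 ± 0.11 (limma adjusted p = 2.72e-05). Steap4 rose from 17.2 ± 1.86 to 28.8 ± 2.71 TPM. Slc39a14, which encodes ZIP14, an importer of zinc and of iron not bound to transferrin, rose from 20.5 ± 7.63 to 33.4 ± 3.25 TPM, and missed the threshold without 0.2 mM replicate 1 (0.0508) or 2 (0.0518). In this list of 7 tested genes 3 rose, 2 fell and 2 did not pass.

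Beside Slc40a1, the ferroxidase gene Cp, ceruloplasmin, which oxidises iron as it leaves the cell, fell from 57.1 ± 7.15 to 31.5 ± 6.36 TPM, and of 3 tested genes of export and systemic control 1 rose, 1 fell and 1 did not pass. The 1 that rose was Hfe2, hemojuvelin of skeletal muscle, at 1.11 ± 0.292 and 3.79 ± 0.744 TPM, named after its values were seen. In the heme route, Slc48a1, which moves heme out of lysosomes, fell from 43.4 ± 2.01 to 22.6 ± 1.31 TPM, or by log2 -0.91 ± 0.075 (limma adjusted p = 6.61e-06). Hmox1, heme oxygenase, which frees iron from heme, fell from 88.7 ± 2.34 to 73.9 ± 3.11 TPM, and missed the threshold with libraries 1 to 3 of each group alone (0.0503). Hp, haptoglobin, which binds free hemoglobin, rose from 163 ± 12.7 to 224 ± 8.5 TPM. Of the 8 tested in this route 2 rose, 2 fell and 4 did not pass.

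Of 9 tested genes of cytosolic storage, chaperones and the ligase that degrades IRP2, 1 rose and the other 8 did not pass. Skp1a, a subunit of that ligase and of many others, rose from 43.6 ± 1.5 to 52.4 ± 3.37 TPM, and missed the threshold without 0.2 mM replicate 1 (0.0678) or 3 (0.0715), after median-ratio scaling (0.11) and after quantile normalization (0.0826). Its partner Cul1 was at 15.9 ± 2.13 and 11.05 ± 3.28 TPM, and Pcbp4, of the family of Pcbp1, at 9.86 ± 0.730 and 13.2 ± 2.17 TPM, and neither passed. Each did pass without 1 library at 0.8 mM, Cul1 without replicate 5 (0.0459) and Pcbp4 without replicate 3 (0.026). With libraries 1 to 3 of each group alone Cul1 passed at a log2 fold change of -0.87 (limma adjusted p = 0.0046), against -0.53 with all libraries, and Pcbp4 passed with the filter at a mean of 5 TPM (0.0404). The mitochondrial ferritin gene Ftmt was listed at 0 in all libraries.

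In mitochondria, Slc25a37, which encodes the iron importer mitoferrin 1, fell from 14.8 ± 3.19 to 5.96 ± 0.624 TPM, or by log2 -1.17 ± 0.13 (limma adjusted p = 7.84e-05). Hspa9, a chaperone that serves protein import and cluster transfer, fell from 65.1 ± 3.91 to 30.4 ± 2.48 TPM. Glrx5, which passes iron-sulfur clusters on, rose from 28.5 ± 2.96 to 37.4 ± 3.17 TPM, and missed the threshold without 0.2 mM replicate 2 (0.0602). Of the 17 tested in this list 3 rose, 2 fell and 12 did not pass. For cluster assembly in the cytosol, 2 of 9 rose, 1 fell and 6 did not pass. Fam96b, a subunit of the complex that targets clusters to proteins, rose from 31.6 ± 2.99 to 44.4 ± 3.26 TPM. The calls of Fam96a, which rose by 0.28, and of Ciapin1, which fell by 0.41, were each lost without any 1 of 7 libraries, up to 0.161 without 0.2 mM replicate 2 and 0.172 without 0.2 mM replicate 3. Other alternatives also lost them, 8 for Fam96a (limma adjusted p up to 0.196) and 3 for Ciapin1 (up to 0.229). Lcn2, lipocalin 2, which binds the iron carriers of bacteria, was at 406 ± 36.9 and 367 ± 79.2 TPM, and neither of the 2 tested secreted iron-binding proteins passed.

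**Figure D5:**
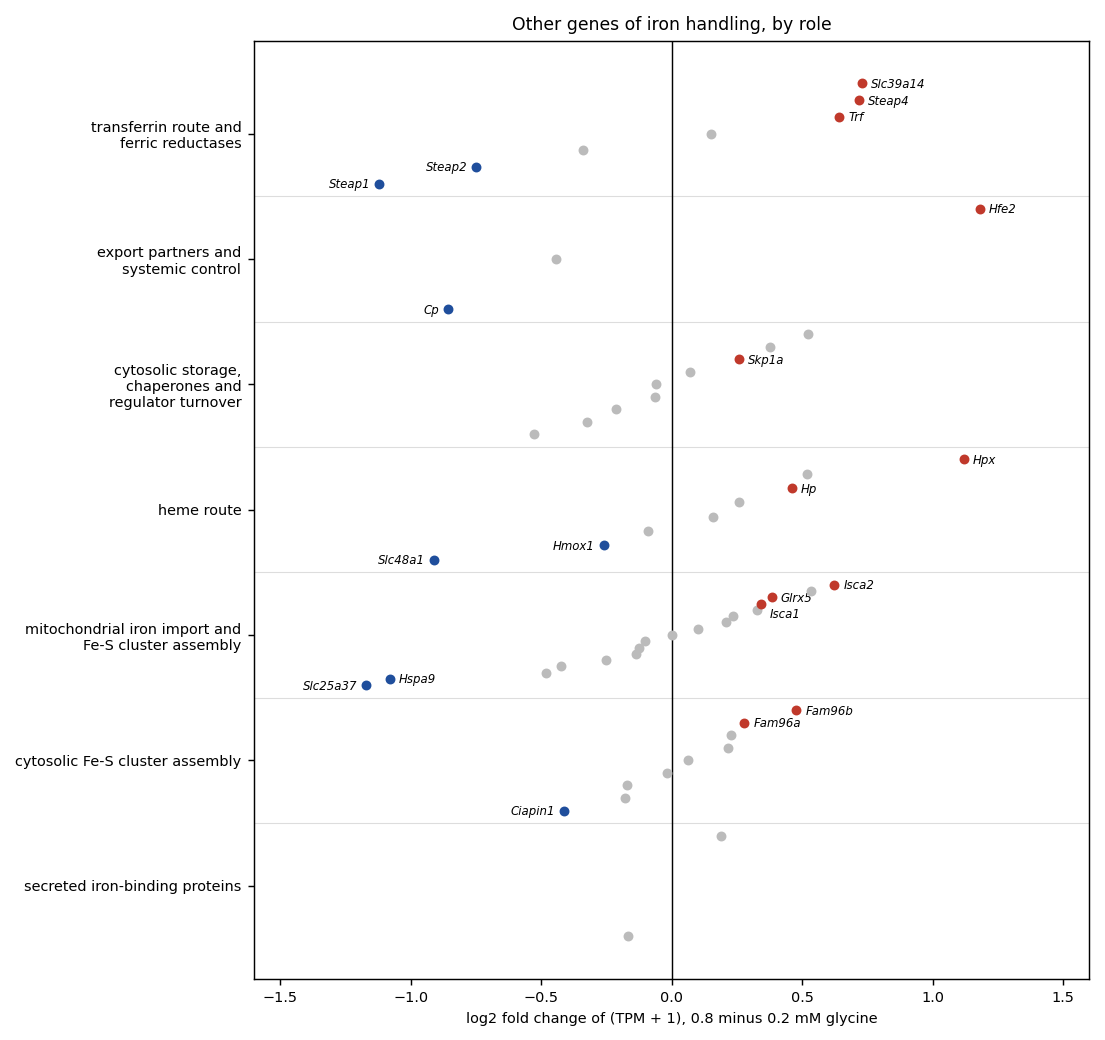
The log2 fold change of (TPM + 1), 0.8 minus 0.2 mM glycine, of the 55 tested genes of iron handling outside the 10, in rows by role, with genes that rose in red, genes that fell in blue and genes that did not pass in grey. Genes that rose and genes that fell stand side by side in 5 of the 7 rows, from Slc25a37 at -1.17 to Hfe2 at 1.18.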

How the data were processed

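The authors deposited 1 table of TPM for 9 libraries, per the file headers. The submitters' processing notes name HISAT2 2.0.5, StringTie 1.3.3, DESeq2 and the build mm10, and the labels name the Illumina TruSeq RNA kit. Of 53715 gene IDs, 53620 matched GENCODE M21 (GRCm38) without the version, 51464 with it. The genes and lists were chosen with earlier results of these data known. Named beside the 10 genes were up to 3 genes of each other iron list with the smallest limma p among those with a mean of at least 5 TPM, and the 4 genes nearest in pattern to Fth1, Tfrc and Slc11a1. Exceptions are marked where they appear, and some single genes are not reported here.

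Here log2(TPM + 1) was fitted over all genes with at least 1 TPM in at least 3 libraries, in limma 3.58.1 (R 4.3.3) with a variance trend and Benjamini-Hochberg adjustment. On simulated data with 200 changed genes among 10049 for this comparison, 35.8% of 1.5-fold, 70% of 2-fold and 94.8% of 4-fold changes were called, and 0.0721% of unchanged genes. In the data themselves 26.6% of genes tested were called. The adjustment depends on how many genes change, so the simulated rates hold only for the simulated setting. Marker sums were compared by a two-sided exact permutation test over 84 splits. Ferritin copies were found with blastn 2.17.0 and hairpin letters by a pattern search, both added after the table was seen. TPM keeps no depth, so no counting interval is given. Alternatives changed the pseudocount, filter, scaling, variance model, library weights and libraries used.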

Additional observations from a re-analysis of the deposited data

Results flagged for a closer look

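Among the 6 libraries at 0.8 mM glycine, 1 library stood apart from the others in 4 of 44 values checked with Dixon's criterion, which flags about 1 in 20 groups by chance. Steap1 was at 17.66 TPM in replicate 5, with the next library at 13.97 TPM and the lowest at 11.86 TPM. The summed muscle markers were at 5886 TPM in the same replicate 5, with the next at 6792 TPM and the highest at 7194 TPM. Hp was at 240.6 TPM in replicate 3, with the next at 225.6 TPM and the lowest at 217.2 TPM. Ciapin1 was at 15.05 TPM in replicate 2, with the next at 12.09 TPM and the lowest at 10.67 TPM. None of the 10 iron genes stood out in this way. Without replicate 5, Steap1 still fell, and without replicate 3, Hp still rose.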

How the results depend on the processing

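Of 26 named genes, 13 had the same call under every alternative that gave them a value, and no result reversed. Among them Ftl1 fell and Tfrc rose throughout, while Aco1 and Ireb2 never passed. Aco1 gave no value with the filter at a mean of 5 TPM. The call of Fth1 was lost with quantile normalization alone, at a difference of 0. Of the 10 iron genes, 4 fell, and this count was 2 with libraries 1 to 3 of each group and 2 to 4 with 1 library left out. The 2 that rose became 1 with no filter, and 1 to 2 with 1 library left out. The other iron genes that rose numbered 12, and 6 to 12 with 1 library left out, lowest without 0.2 mM replicate 2; those that fell numbered 8, and 7 to 9. Over all genes tested 1683 rose (1304 to 1626 with 1 left out) and 986 fell (720 to 968). Scaling moved the split: 63.1% of called genes rose, but 52.4% after median-ratio scaling and 49.8% after quantile normalization. With the library number as a replicate block, libraries 1 to 3 gave 1 iron gene that rose and 2 that fell, 7 other iron genes that rose, and 625 of all genes that fell. Same-numbered libraries correlated at 0.0229, 0.03 and 0.0812, and 0.2 mM replicate 2 was nearest to 0.8 mM replicate 1 (0.0799), so the numbers were not taken as pairs. Depth is unknown, and Slc40a1 and Ireb2 lie near or under 1 TPM, so that Ireb2 gave no value where it missed the filter.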
